A study of Mus musculus with 16 samples.

Results

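The comparison described here sets tumours of mice given an antibody against PD-1 alone (AntiPD1, n = 3) beside tumours of mice given control IgG (Placebo, n = 4), which is 7 of the 16 tumours of the study. All mice were male C57BL/6 animals that were 5 weeks old when Hepa1-6 cells, a mouse hepatocellular carcinoma line, were placed under the skin of the right flank in 50% Matrigel. Treatment began once tumours measured 200 to 300 mm3. Placebo was hamster IgG at 10 mg/kg, injected into the abdomen every 3 days for 5 doses. AntiPD1 was the hamster antibody J43, which blocks mouse PD-1, given at the same dose on the same schedule. Tumours were removed on day 14. The 2 remaining groups, used here only where named, received cabozantinib by mouth at 30 mg/kg each day, an inhibitor of VEGF receptors and other kinases (Cabozantinib, n = 5), or cabozantinib with the antibody (Combination, n = 4). Members are all 17097 genes that have a probe set assigned to 1 gene, each represented by its brightest such probe set, judged by the mean of all 16 arrays. Values are log2 signals, and a difference is AntiPD1 minus Placebo on that scale unless stated. The comparison asks what PD-1 blockade alone changes in these tumours.

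PD-1 is an inhibitory receptor on activated T cells. When its ligands PD-L1 or PD-L2 on tumour or myeloid cells bind it, signalling through the T cell receptor is dampened, and an antibody that blocks the contact can restore killing of tumour cells. Released T cells secrete interferon gamma, which induces chemokines such as Cxcl9 and Cxcl10, antigen presentation and PD-L1 itself. The arrays measured whole tumour RNA, so more cells of a type and more RNA per cell cannot be told apart in any value below.

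The tumours carried the defining genes of a liver cancer line. Alb, which encodes albumin, had levels between 13.1 and 13.2 in the 7 tumours, and Afp, which encodes alpha-fetoprotein, between 12.6 and 12.7. Array medians of the 7 tumours ran from 4.92 to 5.1, and 5.13 was the highest of all 16. Non-specific control probe sets averaged 3.88 in AntiPD1 and 3.89 in Placebo, so signals near 4 are near background. Of 6 array measures, 2 separated the groups. The mean of the 3 measured Y-linked genes Kdm5d, Eif2s3y and Uty was 6.91 ± 0.17 (SD, n = 3) in AntiPD1 and 5.94 ± 0.50 (n = 4) in Placebo. Its 3 AntiPD1 values lay above every Placebo value (two-sided exact permutation p = 0.0571, the smallest that 3 against 4 allows, adjusted p = 0.171 over 6 measures). The 3' minus 5' signal of Actb, a sign of RNA integrity, was 0.449 ± 0.003 in AntiPD1 and 0.490 ± 0.036 in Placebo, with all 3 below every Placebo value and the same exact and adjusted p. That of Gapdh was -0.007 ± 0.021 and 0.042 ± 0.018 (exact permutation p = 0.0857, adjusted p = 0.171). The part of these measures in the differences below was not tested. The Y-linked mean was fitted as a covariate in an alternative setting. Since it separated the groups, that fit also takes up group difference and cannot part its share from that of treatment. The sources used here do not say whether Hepa1-6 cells carry a Y chromosome. Skeletal muscle genes stood apart in AntiPD1 replicate 2, with a mean level of 11.02 over 17 genes. That level was 4.78 and 4.58 in the other AntiPD1 tumours and 5.47, 4.53, 7.40 and 4.56 in Placebo replicates 1 to 4.

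Of 17097 genes, 5 (0.0292%) passed a Benjamini-Hochberg adjusted p of 0.05 in limma. Ptn, Esm1 and Chga rose with the antibody, and Hsd17b7 and Clcn3 fell. Ptn encodes pleiotrophin, a heparin-binding growth factor. Its signal was 4.03, 4.02, 4.63 and 4.80 in the Placebo tumours and 6.65, 6.70 and 6.61 in the AntiPD1 tumours. The Placebo values were near background, and the AntiPD1 values were close together, with an SD of 0.05. The difference was 2.28 ± 0.35 (SE, adjusted p = 0.0469). Esm1 encodes endocan, a proteoglycan secreted by sprouting endothelium. It read 6.11, 6.85, 6.70 and 7.25 in Placebo and 7.82, 8.31 and 8.64 in AntiPD1, a difference of 1.53 ± 0.24 (adjusted p = 0.0469). Chga encodes chromogranin A, a protein of secretory granules in neuroendocrine cells. It read 4.37, 4.18, 4.28 and 4.61 in Placebo and 5.31, 6.06 and 5.42 in AntiPD1, a difference of 1.24 ± 0.18 (adjusted p = 0.0469). In all 3 genes every AntiPD1 tumour lay above every Placebo tumour.

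Hsd17b7 encodes a reductase of the late cholesterol pathway. It read 7.01, 6.94, 6.91 and 6.68 in Placebo and 5.94, 6.02 and 5.91 in AntiPD1, a difference of -0.93 ± 0.12 (limma adjusted p = 0.0331). Clcn3 encodes a chloride and proton exchanger of endosomes. It read 9.13, 9.20, 9.05 and 9.02 in Placebo and 8.64, 8.60 and 8.63 in AntiPD1, a difference of -0.48 ± 0.07 (adjusted p = 0.0469). The groups did not overlap in either gene. The other probe sets of these genes had smaller differences. For Ptn the remaining probe sets gave 1.25 and 0.12, for Hsd17b7 the remaining probe sets gave -0.51 and -0.04, and for Clcn3 they gave -0.37 and -0.21. Esm1 and Chga had 1 probe set each. The granin and neuroendocrine list, Chga included, was mixed, since 6 of the 15 measured had a positive difference and the median was -0.04. Heparin-binding growth factors and their receptors, Ptn included, were mixed too, with 7 of 15 positive and a median of -0.04, as were CLC chloride channels and transporters, Clcn3 included, with 3 of 9 positive and a median of -0.07.

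**Figure D1:**
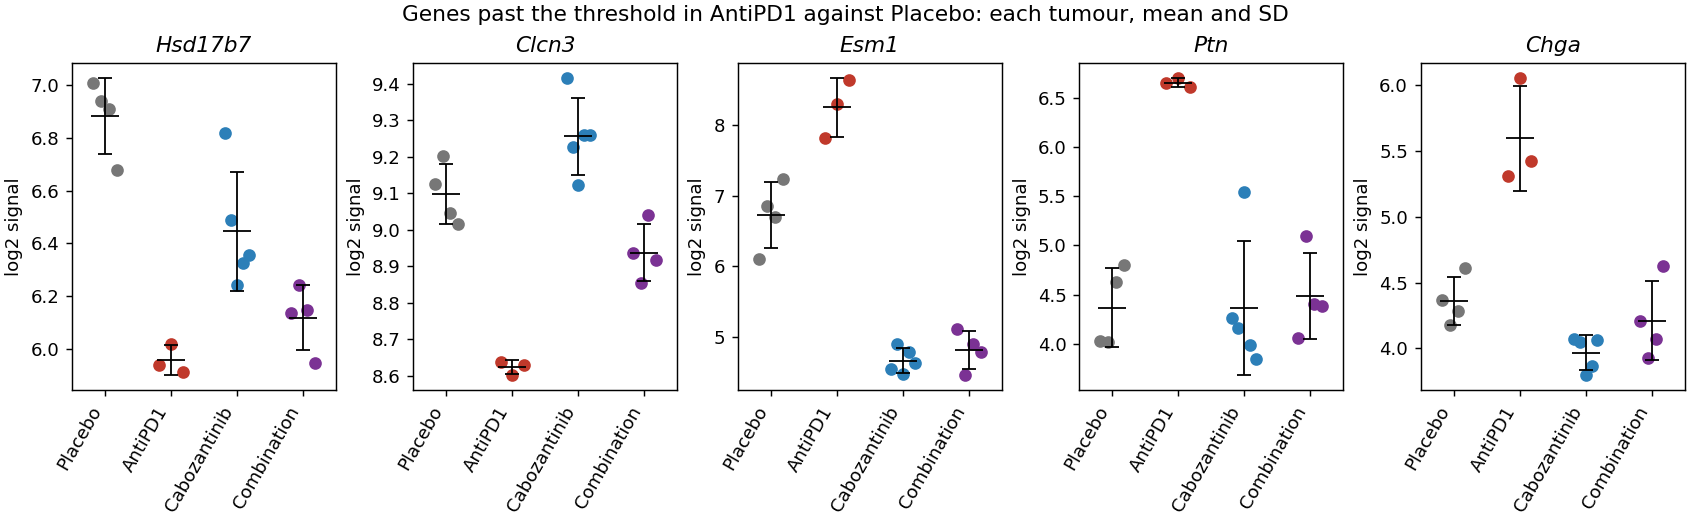
Log2 signal of the 5 genes past the threshold in AntiPD1 against Placebo, for each of the 16 tumours. Points are tumours, and bars are the group mean and SD. Ptn sits between 6.61 and 6.70 in the AntiPD1 tumours and at or below 4.80 in the Placebo tumours, while Esm1 is lowest in both groups given cabozantinib.

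The number of calls rested on single arrays. With Placebo replicate 1, 2 or 3, AntiPD1 replicate 1 or 2, Cabozantinib replicate 4 or 5, or Combination replicate 1 or 3 left out, 0 genes passed. Without AntiPD1 replicate 3, 21 genes passed, with 2 of the 5 among them. Without Cabozantinib replicates 2 and 3 in turn, 10 and 30 passed, with all 5 among them. Without AntiPD1 replicate 2 and Placebo replicate 3 together, the highest in muscle genes of the 7 AntiPD1 and Placebo tumours, 0 passed. A random block for the number in the tumour titles left 1 gene past the threshold, a lower one, so Ptn, Esm1 and Chga did not pass. The correlation between tumours that share a number was estimated at -0.10 in that fit. With the Y-linked mean as a covariate, 0 passed and 821 genes had an unadjusted p under 0.05. Without that covariate, 3278 genes had an unadjusted p under 0.05, of which 1439 were higher in AntiPD1 (8.42%) and 1839 lower (10.8%). In 1576 genes (9.22%) all 3 AntiPD1 tumours lay above every Placebo tumour, and in 2095 (12.3%) all 3 lay below. Differences were positive in 43.2% of genes, with a median of -0.03 over all genes. Large differences were mostly upward. A difference above 1 was found in 507 genes and one below -1 in 22, and beyond 2 the numbers were 35 and 2.

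Beyond the 5 called genes, the next strongest statistics upward included several genes known from endothelium, with limma adjusted p between 0.0752 and 0.111. Prnd encodes doppel, a prion-like protein of embryonic and tumour vessels. It read 4.44, 4.49, 5.33 and 4.78 in Placebo and 6.61, 7.31 and 5.58 in AntiPD1, a difference of 1.74 ± 0.30 (adjusted p = 0.0752). Fgd5, an exchange factor of endothelial cells, differed by 1.23. Cdh5, which encodes the endothelial cadherin of cell junctions, read 6.01, 6.11, 6.62 and 6.53 in Placebo and 7.39, 7.81 and 7.28 in AntiPD1, and differed by 1.18 ± 0.23 (adjusted p = 0.111). Sox7, an endothelial transcription factor, differed by 0.69, and Adgrl4, an adhesion receptor of endothelium, by 1.0. Genes of other origin in the same range were Tcfl5, a transcription factor gene, at 1.65, Ifi213, an interferon-inducible gene, at 1.61, and Cd5l, which encodes a secreted macrophage protein, at 2.52. Cd5l differed most among the treated tumours, with 6.77, 8.12 and 9.09 against 5.24 to 5.80 in Placebo. None of these genes passed the threshold.

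The strongest downward statistics beyond the called genes had adjusted p values between 0.0752 and 0.111 (limma). Adamdec1 encodes a metalloprotease made by macrophages and dendritic cells. It read 9.75, 9.03, 9.28 and 8.90 in Placebo and 5.76, 6.65 and 7.40 in AntiPD1, a difference of -2.64 ± 0.48 (adjusted p = 0.105), against the direction of the macrophage genes given below. Mcpt2, which encodes a mast cell protease, lay outside that range of adjusted p and is named for the size of its difference. It read 9.19, 6.08, 8.64 and 6.49 in Placebo and 4.80, 5.79 and 5.56 in AntiPD1, a difference of -2.22 ± 0.57 (adjusted p = 0.127). The list of mast cell and eosinophil genes was mixed. Of 14 measured, 8 were above 0. At an unadjusted p under 0.05, 2 were higher and 2 lower, beside 8.42% and 10.8% of all genes. The median was 0.11, with values between -0.63 and 0.56 and a change of sign under 5 of the 26 alternative settings. Adamdec1 and Mcpt2 were the only 2 genes lower by more than 2. Among the other lower genes, Cldn4, which encodes a tight junction claudin, was very even within groups, at 10.24 to 10.45 in Placebo and 9.60 to 9.65 in AntiPD1, and differed by -0.75 ± 0.14 (adjusted p = 0.105). Golt1a, a gene of Golgi transport, differed by -0.95, Sult1c2, a sulfotransferase gene, by -0.97, Mpp7, which encodes a polarity scaffold, by -0.75, Lrp5, which encodes a WNT co-receptor, by -0.62, and Clk1, a kinase gene of splicing, by -0.35. None of these genes passed the threshold.

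Genes of cholesterol synthesis were lower in the AntiPD1 tumours along most of the pathway, though only Hsd17b7 passed the threshold. Cells build cholesterol from acetyl-CoA through squalene and lanosterol, and the transcription factor SREBP-2, encoded by Srebf2, turns most of these enzymes on when membrane cholesterol is low. Of 19 measured genes, 18 had a negative difference, 15 of them with an unadjusted p under 0.05, beside 10.8% of all genes that were lower at such a p. In 12 of 19 all AntiPD1 tumours lay below all Placebo tumours, beside 12.3% of all genes. The median difference was -0.55, against -0.03 over all genes, and it lay between -0.70 and -0.30 under the 26 alternative settings. Its highest value, -0.30, came with the Y-linked mean as a covariate. The mean level of the 19 genes was 8.22, 7.98, 8.31 and 7.99 in Placebo and 7.77, 7.54 and 7.44 in AntiPD1, so the groups did not overlap.

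The strongest statistics of the list after Hsd17b7 belonged to Lss, Sqle and Srebf2. Sqle encodes squalene epoxidase, which begins the sterol part of the pathway. It read 10.76, 10.70, 10.78 and 10.57 in Placebo and 10.24, 9.93 and 10.01 in AntiPD1, a difference of -0.64 ± 0.15 (limma adjusted p = 0.119). Lss, which encodes the lanosterol-forming cyclase of the next step, read 6.43, 6.60, 6.46 and 6.38 in Placebo and 5.79, 5.25 and 5.57 in AntiPD1, a difference of -0.92 ± 0.21 (adjusted p = 0.111). Srebf2 itself read 9.19, 9.02, 9.04 and 8.90 in Placebo and 8.65, 8.40 and 8.36 in AntiPD1, a difference of -0.57 ± 0.16 (adjusted p = 0.136). None of the 3 passed the threshold. The lone positive difference of the list was that of Ebp, a sterol isomerase gene, at 0.15, named here after its value was seen. Fatty acid genes, which share SREBP control in part, showed less. Of 13 measured, 9 had a negative difference, 3 of them with an unadjusted p under 0.05, and 6 lay below every Placebo tumour, beside 10.8% and 12.3% of all genes, with a median of -0.27. Fads1 and Fads2, which encode desaturases of polyunsaturated fatty acids, differed by -0.54 and -0.88 (adjusted p = 0.127 and 0.136).

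The promoter of Hmgcs1, which encodes the enzyme that forms HMG-CoA, is shown because it held the letters of a sterol regulatory element, TCACNCCAC, on either strand within 250 bases before and 50 after the gene start. It was the only 1 of 15 cholesterol genes with a promoter in the RefSeq table to do so (6.67%), beside 1.5% of 13605 tested genes. Its level was 5.91 in mean Placebo and 5.16 in mean AntiPD1, a difference of -0.74 ± 0.21 (limma adjusted p = 0.136). The match begins at position -137 relative to the start. The stretch printed lies at chr13:119690194-119690242 on the plus strand of GRCm38.p6, and the capitals mark the match:
Hmgcs1: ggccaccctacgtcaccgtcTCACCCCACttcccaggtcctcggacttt

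Genes of the type I interferon response were higher in the AntiPD1 tumours, with none past the threshold. These genes encode antiviral proteins that cells make when interferon alpha or beta, and to a lesser degree interferon gamma, signals through STAT and IRF factors. Of 17 measured genes, 16 had a positive difference, 10 of them with an unadjusted p under 0.05 against 8.42% of all genes. In 11 all AntiPD1 tumours lay above all Placebo tumours, against 9.22% of all genes, and the median difference was 0.49. The mean level was 8.18, 7.76, 8.05 and 7.78 in Placebo and 8.88, 8.44 and 8.59 in AntiPD1. The median stayed between 0.30 and 0.63 under the alternative settings. Rsad2 encodes viperin, an antiviral enzyme. It read 8.18, 8.09, 8.21 and 8.19 in Placebo, which is very even, and 10.50, 9.59 and 10.01 in AntiPD1, a difference of 1.87 ± 0.40 (limma adjusted p = 0.111). Oas2, which encodes a sensor enzyme for double-stranded RNA, differed by 0.98 ± 0.26 (adjusted p = 0.127), and Mx1, which encodes an antiviral GTPase, by 0.79 ± 0.19 (adjusted p = 0.119). Both were higher in every AntiPD1 tumour than in any Placebo tumour.

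The promoters of these genes are shown because several shared the letters of the interferon-stimulated response element, GAAANNGAA on one strand or TTCNNTTTC on the other. A match was found in 6 of 11 type I interferon genes with a promoter in the table (54.5%), beside 8.69% of 13605 tested genes. A match describes the sequence and shows no binding. The genes printed are Rsad2 and 3 others with a match, chosen after their values were seen. Ifih1 and Ddx58 also held a match but are not printed, and they differed by 0.37 and 0.03. Ifit1 and Ifit3, which encode RNA-binding antiviral proteins, differed by 1.37 ± 0.37 and 1.40 ± 0.41 (limma adjusted p = 0.133 and 0.137), and Oas3, a relative of Oas2, by 0.47 ± 0.14 (adjusted p = 0.15). The sequences are from RefSeq, build GRCm38.p6, read along the strand of the gene, with the match in capitals. They lie at chr12:26456543-26456591 (minus), chr19:34640760-34640808 (plus), chr19:34583388-34583436 (plus) and chr5:120777706-120777754 (minus):
Rsad2: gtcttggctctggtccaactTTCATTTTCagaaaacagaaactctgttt
Ifit1: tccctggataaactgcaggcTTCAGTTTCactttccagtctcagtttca
Ifit3: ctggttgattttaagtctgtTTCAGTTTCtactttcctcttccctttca
Oas3: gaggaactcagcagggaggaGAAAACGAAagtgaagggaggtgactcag
The Ifit1, Ifit3 and Oas3 promoters each held more than 1 match, and those of Ifit1 and Oas3 overlapped within themselves.

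**Figure D2:**
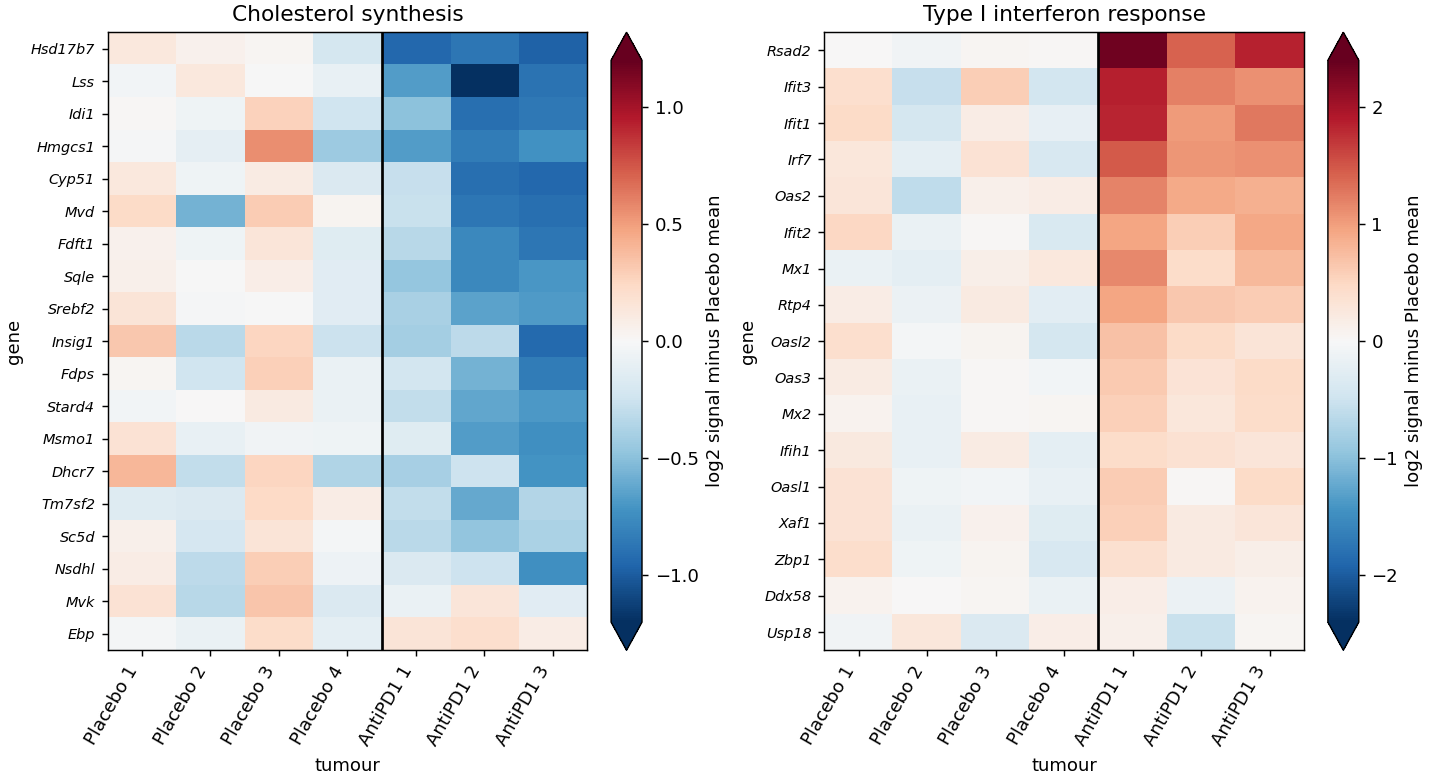
Log2 signal of each tumour minus the Placebo mean of the gene, for the 19 cholesterol genes and the 17 type I interferon genes measured. Blue is below and red above the Placebo mean. Most cholesterol genes are blue in all 3 AntiPD1 tumours, and the upper interferon genes are red in all 3.

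Neither the receptor that the antibody blocks nor its ligands passed the threshold. Pdcd1, which encodes PD-1, read 7.43, 7.24, 6.79 and 6.95 in Placebo and 7.54, 7.42 and 8.08 in AntiPD1, a difference of 0.58 ± 0.40 (limma adjusted p = 0.438). Cd274, which encodes PD-L1, read 10.51, 9.82, 9.55 and 9.67 against 10.40, 10.39 and 10.07, a difference of 0.40 ± 0.24 (adjusted p = 0.371). Pdcd1lg2, which encodes PD-L2, read 9.79, 8.77, 8.80 and 8.78 against 9.50, 9.73 and 9.55, a difference of 0.56 ± 0.28 (adjusted p = 0.284). In all 3 genes the groups overlapped, and Placebo replicate 1 was the Placebo tumour with the highest value. Of 15 measured genes of the pathway, its partners and related checkpoints, 14 had a positive difference, 5 with an unadjusted p under 0.05, and 3 lay above every Placebo tumour, beside 8.42% and 9.22% of all genes. The median was 0.58. The costimulatory ligand genes Cd86 and Cd80, carried by antigen-presenting cells, differed by 1.33 ± 0.46 and 0.79 ± 0.31 without overlap (adjusted p = 0.167 and 0.199). Among the other inhibitory receptors, Havcr2 differed by 1.02 ± 0.45, Ctla4 by 0.91 ± 0.52 and Lag3 by 0.19 ± 0.33, and the costimulatory receptor gene Tnfrsf9 by 0.49 ± 0.40. None of these genes passed the threshold.

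Genes of T cells and killer cells had positive differences without exception, with 12 of 12 and 14 of 14 measured genes above 0. At an unadjusted p under 0.05 there were 3 and 4 of them, and 6 and 5 lay above every Placebo tumour, beside 8.42% and 9.22% of all genes. The medians were 0.69 and 0.72. Cd3e, which encodes a chain of the T cell receptor complex, read 7.84, 7.82, 7.18 and 7.46 in Placebo and 8.08, 8.01 and 8.67 in AntiPD1, a difference of 0.68 ± 0.30 (limma adjusted p = 0.239). Cd8a, the marker of cytotoxic T cells, read 8.78, 8.25, 8.11 and 8.19 against 8.74, 8.92 and 9.42, a difference of 0.70 ± 0.32 (adjusted p = 0.258), and Placebo replicate 1 lay above an AntiPD1 tumour. Cd4 differed by 0.20 ± 0.19. Gzmk, which encodes a granzyme of memory-like cytotoxic cells, read 7.88, 7.59, 7.33 and 7.45 against 8.69, 8.0 and 8.88, a difference of 0.96 ± 0.31 (adjusted p = 0.161). Eomes, a transcription factor gene of killer cells, differed by 0.58 ± 0.22 without overlap (adjusted p = 0.191).

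Gzmb, Prf1, Fasl and Ifng, which encode effector proteins of these cells, overlapped between the groups, unlike Gzmk. Gzmb, the main granzyme gene, read 10.24, 9.75, 8.82 and 9.06 in Placebo and 10.21, 9.92 and 10.51 in AntiPD1, a difference of 0.74 ± 0.51 (limma adjusted p = 0.440). Prf1, which encodes perforin, differed by 0.70 ± 0.42, Fasl, which encodes a death ligand, by 0.92 ± 0.37, and Ifng by 0.48 ± 0.45 (adjusted p = 0.367, 0.216 and 0.590). Foxp3, the regulator of regulatory T cells, lay between 4.54 and 4.84 in all 7 tumours, below the highest array median. The mean level of the T cell genes was 7.77 in Placebo replicate 1 and 7.11 to 7.18 in the other Placebo tumours, and 7.80, 7.86 and 8.24 in AntiPD1, so Placebo replicate 1 lay just below the lowest treated tumour. The median of the killer cell list was as low as 0.03 among the 26 alternative settings. With the Y-linked mean as a covariate, the median of the T cell list was -0.08 and that of the PD-1 pathway list -0.08. In the same fit the differences of Pdcd1, Pdcd1lg2, Ctla4, Lag3, Tnfrsf9, Cd4 and Ifng were below 0.

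Targets of interferon gamma showed small positive differences. All 16 measured were above 0, with a median of 0.17, 0 had an unadjusted p under 0.05 and 1 lay above every Placebo tumour, beside 8.42% and 9.22% of all genes. Cxcl9 and Cxcl10, which encode chemokines that draw T cells, were already at 11.81 to 12.53 and 10.31 to 11.26 in Placebo. They differed by 0.33 ± 0.23 and 0.37 ± 0.23 (limma adjusted p = 0.452 and 0.386). H2-Aa, an antigen-presenting MHC class II gene, differed by 0.41 ± 0.36. The 10 measured MHC class II genes had a median of 0.39 and the 9 class I genes 0.13, with 2 of each list above every Placebo tumour, beside 9.22% of all genes. The medians of the interferon gamma, class II and class I lists were -0.16, -0.47 and -0.14 with the Y-linked mean as a covariate.

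Monocyte, macrophage and neutrophil markers had the highest medians among the immune lists. Monocytes enter tumours along chemokines of the CCL family and become macrophages, which take up debris and lipid. Of 16 monocyte and macrophage genes, 16 were higher, 7 with an unadjusted p under 0.05, and in 13 all AntiPD1 tumours lay above all Placebo tumours, beside 8.42% and 9.22% of all genes, with a median of 0.98. Their mean level was 9.09, 7.94, 8.94 and 8.57 in Placebo and 9.78, 9.89 and 9.50 in AntiPD1. Itgam, which encodes CD11b, read 6.78, 5.00, 6.45 and 5.82 against 8.30, 7.93 and 7.84, a difference of 2.01 ± 0.62 (limma adjusted p = 0.15). Mrc1, the mannose receptor gene, differed by 1.58 ± 0.50 and Cd14, an endotoxin receptor gene, by 1.03 ± 0.34 (adjusted p = 0.158 and 0.160). The chemokine list had 19 of 20 genes above 0, 10 with an unadjusted p under 0.05 beside 8.42% of all genes, and a median of 0.81. Ccl12, a monocyte attractant gene, read 8.18, 6.89, 8.49 and 8.02 against 9.81, 9.32 and 9.36, a difference of 1.60 ± 0.35 (adjusted p = 0.111). Ccl7 differed by 2.60 ± 0.66, Ccl9 by 1.71 ± 0.47 and Ccl8 by 1.42 ± 0.45, all without overlap. None passed the threshold.

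Genes of macrophage states were mostly above 0 too. Retnla, a gene of alternatively activated macrophages, read 8.45, 6.80, 7.81 and 8.96 in Placebo and 11.29, 11.50 and 10.40 in AntiPD1. Its difference of 3.06 ± 0.66 was among the 5 largest of genes above the highest array median (limma adjusted p = 0.111). Arg1, which encodes arginase, differed by 1.34 ± 0.38 and Folr2, a folate receptor gene of resident-type macrophages, by 2.44 ± 0.64 (adjusted p = 0.136 and 0.127). Of 12 measured genes of that list 11 were above 0, 6 with an unadjusted p under 0.05 beside 8.42% of all genes, with a median of 0.73. In the lipid-handling list 12 of 14 were above 0, 8 with an unadjusted p under 0.05 beside 8.42% of all genes, with a median of 0.48. Trem2, a lipid-sensing receptor gene, read 6.95, 4.45, 7.04 and 6.41 against 8.75, 8.67 and 8.27, a difference of 2.35 ± 0.73 (adjusted p = 0.151). Cd36, a fatty acid receptor gene, was very even in the treated tumours at 10.20, 10.36 and 10.36 and differed by 1.87 ± 0.58 (adjusted p = 0.152). Lysosomal genes were above 0 in 16 of 17, with a median of 0.28 and 11 above every Placebo tumour, beside 9.22% of all genes. Placebo replicate 2 was the lowest tumour in Itgam, Trem2 and Mrc1. With the Y-linked mean as a covariate, the median of the macrophage list was -0.09, of the chemokine list -0.02 and of the lysosomal list -0.09.

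Neutrophil genes were higher with an uneven spread among treated tumours. Of 19 measured, 18 were above 0, 9 with an unadjusted p under 0.05 and 6 above every Placebo tumour, beside 8.42% and 9.22% of all genes, with a median of 0.95. Clec4d, a lectin gene of neutrophils and monocytes, read 7.72, 5.63, 7.43 and 6.47 in Placebo and 9.55, 9.40 and 9.32 in AntiPD1, a difference of 2.61 ± 0.65 (limma adjusted p = 0.127). S100a8, which encodes a subunit of calprotectin, read 7.73, 7.43, 8.76 and 7.28 against 10.15, 9.70 and 8.52, a difference of 1.66 ± 0.59 with AntiPD1 replicate 3 below the highest Placebo tumour (adjusted p = 0.177). The mean level was 7.12, 6.81 and 6.21 in the AntiPD1 tumours and 5.33 to 6.19 in Placebo. Without AntiPD1 replicate 1 the median was 0.51, and with the Y-linked mean as a covariate it was 0.14.

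Vessel and stroma genes were the remaining group with large differences. Of 22 endothelial genes, 21 were above 0 and 18 had an unadjusted p under 0.05 in that direction, while 1 was lower at such a p. In 11 all AntiPD1 tumours lay above all Placebo tumours. The shares of all genes were 8.42% higher and 10.8% lower at such a p, and 9.22% above every Placebo tumour. The median was 0.87 and remained 0.59 or more in the 26 alternative settings. The mean level was 6.09, 5.75, 6.58 and 6.19 in Placebo and 6.83, 7.47 and 6.69 in AntiPD1, so AntiPD1 replicate 3 lay just above Placebo replicate 3. Mmrn2, an endothelial matrix gene, differed by 1.24 ± 0.27, Tek, which encodes the angiopoietin receptor TIE2, by 1.18 ± 0.26, and Clec14a, an endothelial lectin gene, by 0.87 ± 0.19 (limma adjusted p = 0.111 for each). Among tip cell genes, 12 of 15 were above 0, Esm1 passed the threshold and Apln, a peptide hormone gene of tip cells, differed by 0.78 ± 0.23 (adjusted p = 0.137). Vegfa, the growth factor gene of vessels, read 9.90, 9.68, 9.30 and 9.52 in Placebo and 9.29, 9.21 and 8.57 in AntiPD1, a difference of -0.58 ± 0.18 (adjusted p = 0.158). Kcnj8, a potassium channel gene of pericytes, differed by -0.58 ± 0.14 (adjusted p = 0.127), while Acta2, which encodes smooth muscle actin, differed by 0.49 ± 0.23 (adjusted p = 0.268). Of the 9 measured genes of pericytes and smooth muscle, 7 were above 0, with a median of 0.16 that became -0.11 without AntiPD1 replicate 2.

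Fibroblast and matrix genes had the highest median after the muscle list, at 1.08, with 20 of 24 above 0, 15 with an unadjusted p under 0.05 and 17 above every Placebo tumour, beside 8.42% and 9.22% of all genes. Ogn, which encodes the small matrix proteoglycan osteoglycin, had the largest difference among genes above the highest array median. It read 4.88, 4.32, 7.07 and 7.06 in Placebo and 9.62, 9.99 and 8.20 in AntiPD1, a difference of 3.43 ± 0.96 (limma adjusted p = 0.136). Placebo replicates 1 and 2 were near background and replicates 3 and 4 well above it. Itgbl1, a secreted matrix gene, differed by 3.09 ± 0.88, Lum, which encodes lumican, by 2.74 ± 0.94, and Lox, which encodes a collagen cross-linking enzyme, by 1.75 ± 0.60 (adjusted p = 0.136, 0.166 and 0.165). Dpt and Sfrp2, further matrix genes of fibroblasts, differed by 2.93 ± 1.04 and 2.78 ± 1.05, and Placebo replicate 4 reached into the AntiPD1 range in both. Skeletal muscle genes had a median of 1.40 that became -0.15 without AntiPD1 replicate 2 and Placebo replicate 3. That pair moved the medians of the fibroblast, endothelial and macrophage lists to 1.07, 0.78 and 1.0. With the Y-linked mean as a covariate the fibroblast median was -0.05.

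**Figure D3:**
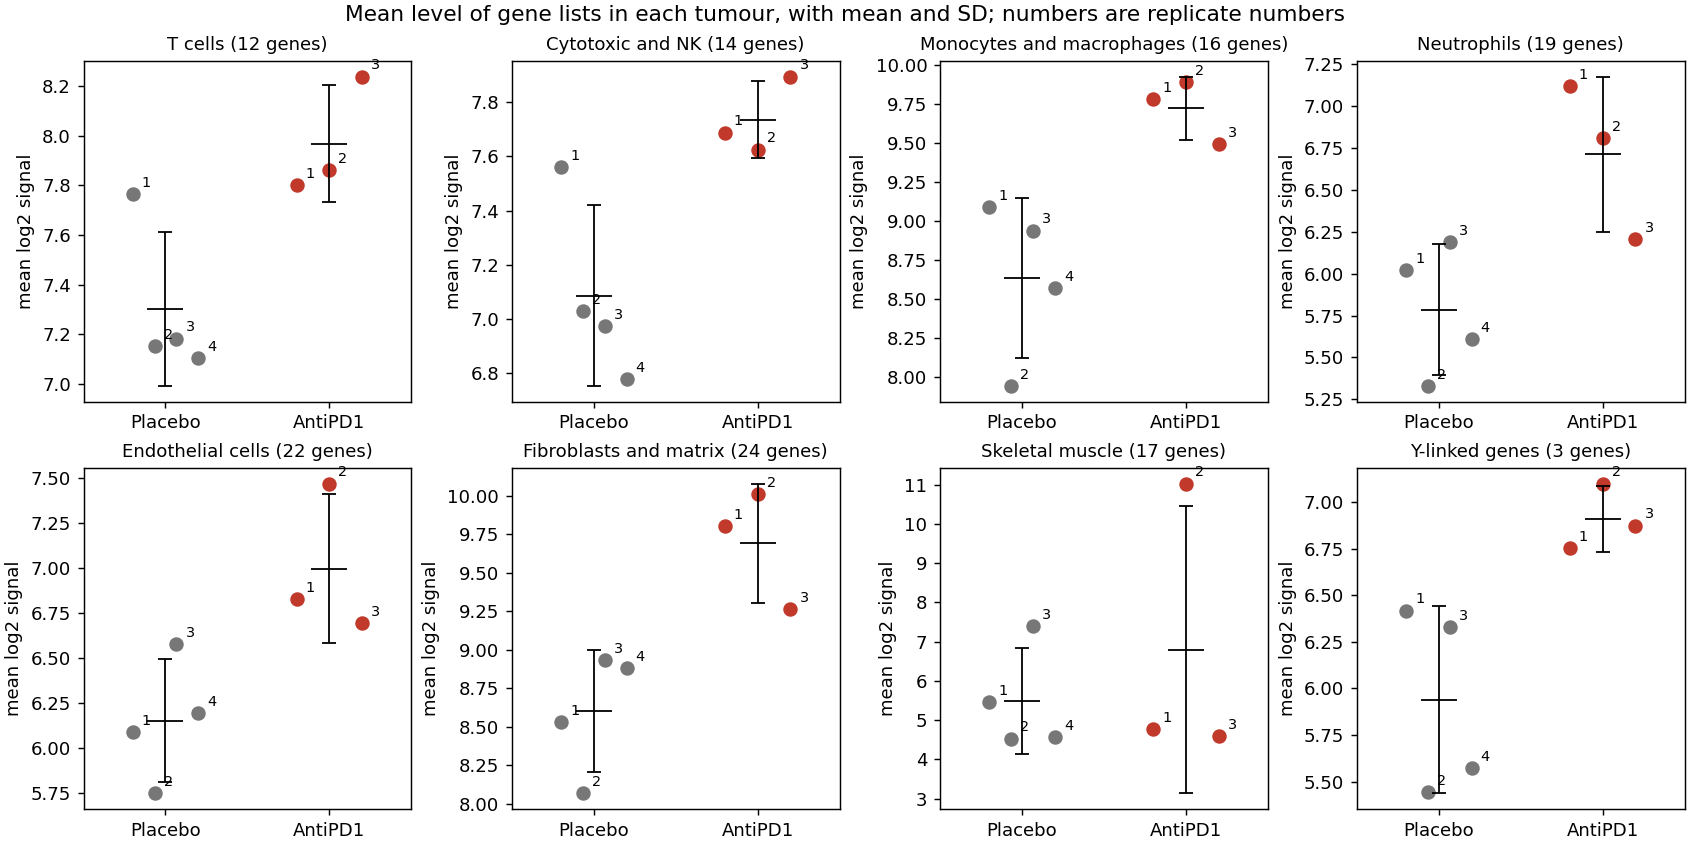
Mean log2 signal over the measured genes of 8 lists in each Placebo and AntiPD1 tumour, numbered by replicate, with group mean and SD. Macrophage and fibroblast levels do not overlap between the groups, Placebo replicate 1 comes close to the AntiPD1 tumours in T cell genes, and AntiPD1 replicate 2 stands alone in muscle genes at 11.02.

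Genes of liver identity and of proliferation had small negative medians. Of 20 hepatocyte and fetal liver genes 5 were above 0, 1 was lower at an unadjusted p under 0.05, beside 10.8% of all genes, and the median was -0.20. That median was 0.41 with the Y-linked mean as a covariate. Alb and Afp each differed by -0.05 ± 0.06 (limma adjusted p = 0.687 and 0.727). Serpina6, which encodes a steroid-binding serum protein, read 4.31, 8.57, 7.19 and 8.15 in Placebo and 6.01, 5.06 and 4.70 in AntiPD1, a difference of -1.80 ± 0.88 with Placebo replicate 1 below all treated tumours. Col9a1, a cartilage collagen gene, differed by -1.64 ± 0.47 without overlap (adjusted p = 0.136). Cell cycle genes were below 0 in 25 of 28, with a median of -0.18, 1 unadjusted p under 0.05 and 0 genes below every Placebo tumour, beside 10.8% and 12.3% of all genes. Mki67, the proliferation marker gene, averaged 10.82 ± 0.12 (SD) in Placebo and 10.60 ± 0.16 in AntiPD1 with overlap, a difference of -0.22 ± 0.13 (SE, adjusted p = 0.370). All 22 ribosomal protein genes were slightly below 0, with a median of -0.07, and 10 lay below every Placebo tumour, beside 12.3% of all genes. Hypoxia and glycolysis genes had a median of -0.09, though Pfkp, a glycolytic kinase gene, differed by 0.50 ± 0.14 without overlap (adjusted p = 0.134).

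**Figure D4:**
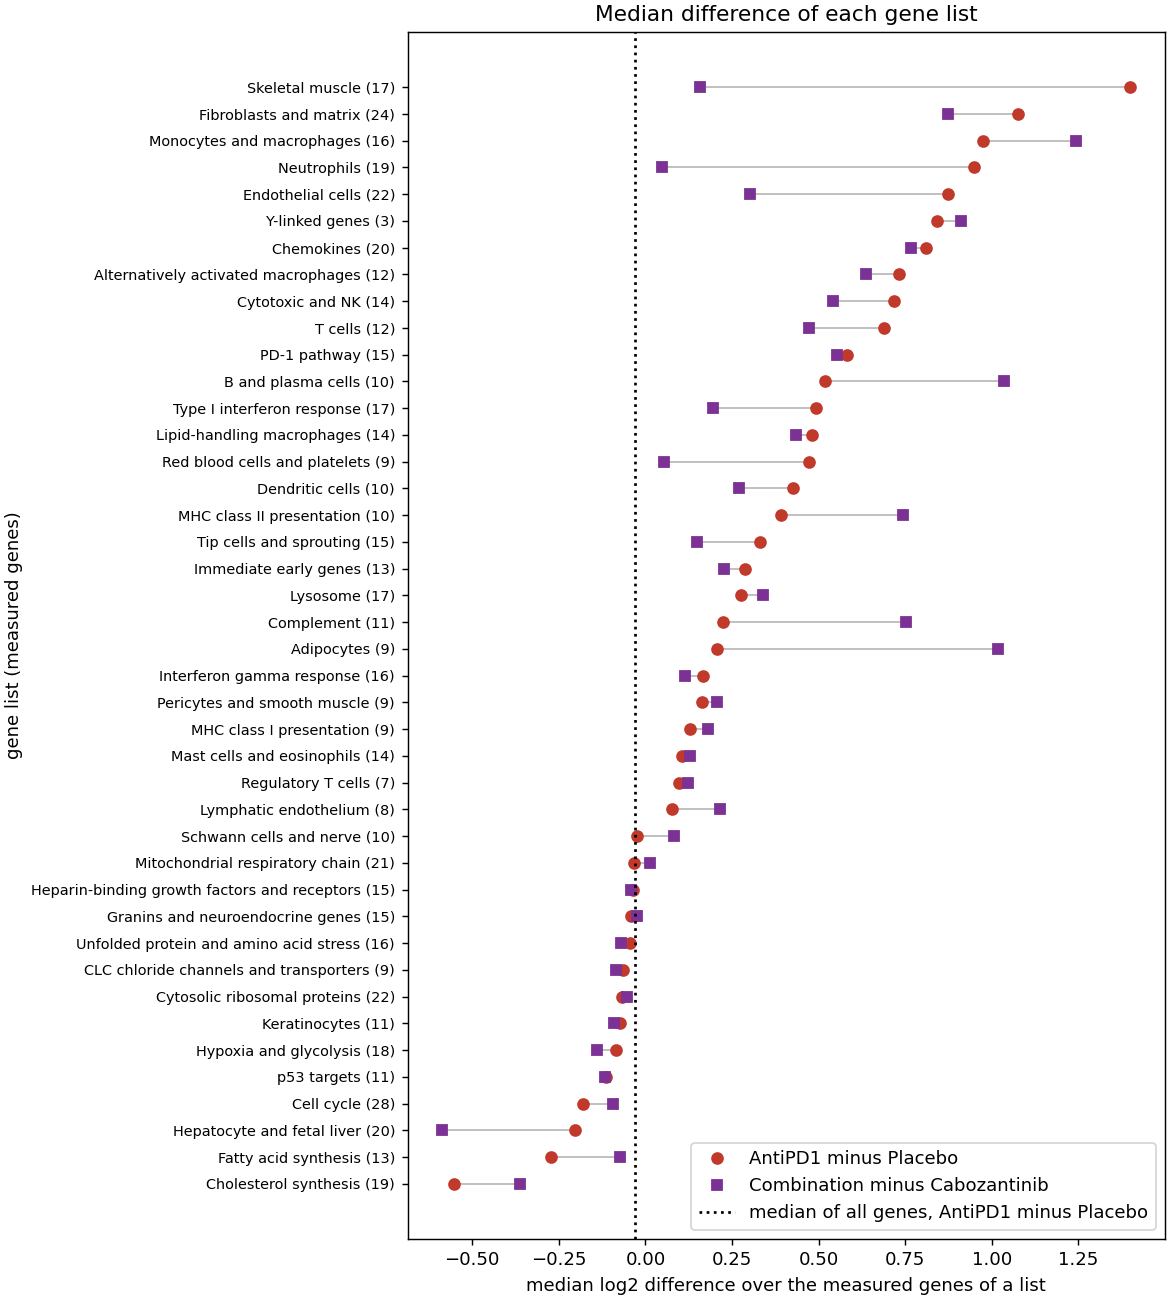
Median log2 difference over the measured genes of each of 42 lists, for AntiPD1 minus Placebo (circles) and Combination minus Cabozantinib (squares). The dotted line marks the median of all genes, -0.03. Cholesterol synthesis is lowest at -0.55, and the muscle, neutrophil and endothelial lists are further from 0 without cabozantinib than with it.

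The same antibody was also added to cabozantinib, in tumours that share no array with the comparison above. The labels give control IgG for Placebo and none for Cabozantinib, so the controls of the comparisons may not be alike. Over 17097 genes, the difference Combination minus Cabozantinib correlated with AntiPD1 minus Placebo at Pearson r = 0.80 (Spearman 0.71), as a description across genes that are not independent of each other. Of the 1439 genes higher at an unadjusted p under 0.05, 94.2% had a positive difference with cabozantinib too, where 42.2% of all genes did, and the medians were 0.62 and 0.46. Of the 1839 lower genes 95.1% were negative there, with medians of -0.34 and -0.24. Y-linked genes also differed in both, with a mean of 6.87 ± 0.33 in Combination and 5.86 ± 0.52 in Cabozantinib. The part of the Y-linked level in this correlation was not tested. In Combination against Cabozantinib, 1 gene (0.00585%) passed the threshold, the immunoglobulin gene Igkv14-111, whose difference in AntiPD1 against Placebo was 0.37 ± 0.38.

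Cholesterol genes were lower in both settings. With cabozantinib, 17 of 19 had a negative difference, 10 of them with an unadjusted p under 0.05, beside 12.6% of all genes lower at such a p there, and the median was -0.36. Macrophage genes were higher in both, with medians of 0.98 and 1.24, and fibroblast genes with 1.08 and 0.87. Type I interferon genes had medians of 0.49 and 0.19, endothelial genes 0.87 and 0.30, and neutrophil genes 0.95 and 0.05. A test of whether the 2 differences were unequal, the interaction term in limma, called 0 of 17097 genes (0%), and 440 (2.57%) had an unadjusted p under 0.05. No gene was thus shown to respond differently with and without cabozantinib, and for the lists this was not tested.

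Among the 5 called genes, the 3 that rose showed the widest gaps between the settings. Ptn was at 4.36 ± 0.68 in Cabozantinib and 4.49 ± 0.44 in Combination, a difference of 0.13 against 2.28 without cabozantinib. Its interaction term in limma had an unadjusted p of 0.000327, which did not pass after adjustment over all genes, like those given next. These unadjusted p values are biased low, since the 5 genes were picked by a difference that is part of the term. Esm1 was at 4.66 ± 0.17 and 4.81 ± 0.28, a difference of 0.15 against 1.53 (unadjusted p = 0.00061). Chga was at 3.97 ± 0.13 and 4.21 ± 0.30, a difference of 0.24 against 1.24 (unadjusted p = 0.000959). These 3 genes were near background in both groups given cabozantinib. Hsd17b7 differed by -0.33 against -0.93 (unadjusted p = 0.00224), and Clcn3, at 9.26 ± 0.11 and 8.94 ± 0.08, by -0.32 against -0.48 (unadjusted p = 0.132). Of the 15 strongest rises without cabozantinib, 14 were above 0 with it, with medians of 1.23 and 0.21. Of the 15 strongest falls all were below 0 with it, with medians of -0.68 and -0.32. These genes were picked for their size without cabozantinib, so the smaller medians with it are a description with no test.

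**Figure D5:**
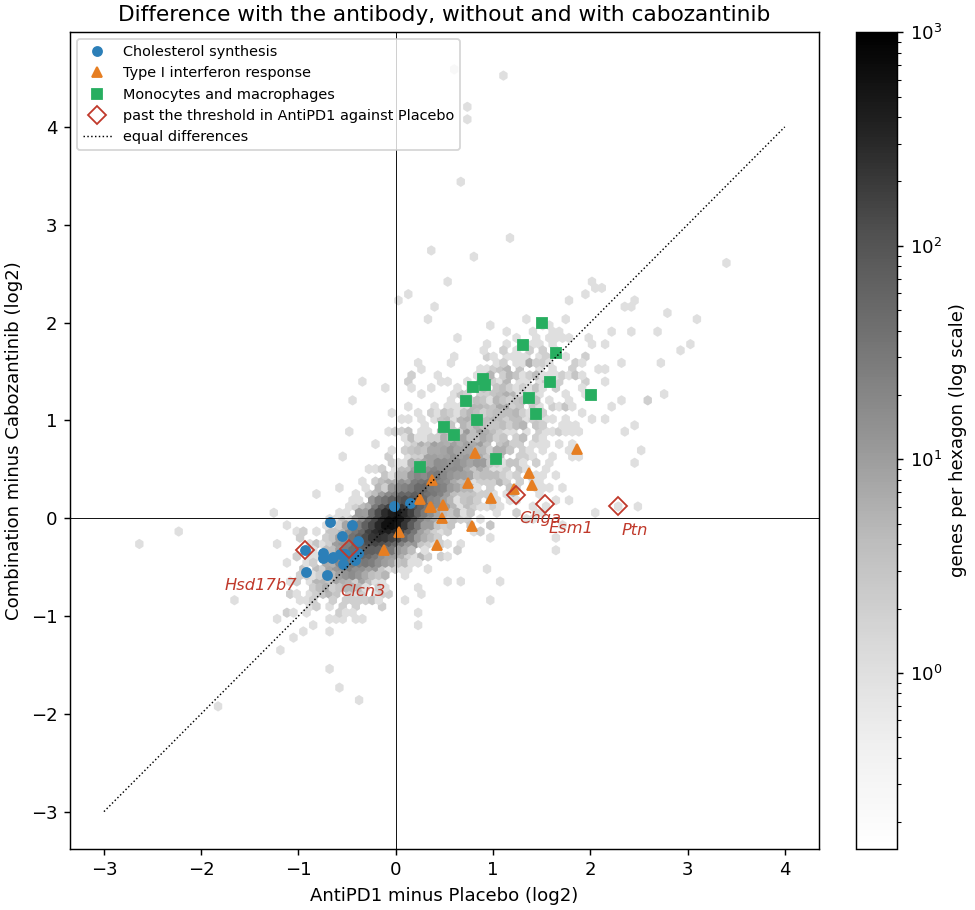
Difference with the antibody for each of 17097 genes, without cabozantinib on the horizontal and with cabozantinib on the vertical axis, both in log2. Grey shades count genes on a log scale, and coloured points are 3 lists and the 5 called genes. Macrophage genes lie along the dotted line of equal differences, and Ptn, Esm1 and Chga lie near 0 on the vertical axis.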

How the data were processed

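The deposited table holds log2 probe set signals of 45141 probe sets on 16 arrays, hybridised by the authors from 50 ng RNA per tumour on an Affymetrix mouse array, per the labels. The submitters' processing notes name RMA and affy 1.62.0. Settings and any batch correction stay unstated in the sources used here. Of 45037 non-control probe sets, 28898 have 1 gene. The gene test used limma 3.58.1 under R 4.3.3 (lmFit and eBayes on 4 group means, residual and prior degrees of freedom 12 and 2.47). Benjamini-Hochberg adjustment covered 17097 genes, with a threshold of 0.05, and ± marks an SE beside a difference. Lists were summarised by counts and medians, with no test. Named genes were those past the threshold, the 15 strongest statistics and 5 largest differences on each side among genes above the highest array median in the higher group, up to 4 members of each list, and a panel of checkpoint, immune and liver genes. The comparison, lists and rule were chosen with earlier results of these data known. Nothing says that a group's tumours differ beyond being separate tumours. Some titles share a number before the point, and its meaning is not stated. Placebo replicate 2 shares its number with AntiPD1 replicate 1, and Placebo replicate 4 shares another with AntiPD1 replicate 3. Cabozantinib replicate 2 shares a number with Cabozantinib replicate 3, and Cabozantinib replicate 5 shares one with Combination replicate 3. Arrays carry no read depth, and their number limits the precision. The gene test was also run on simulated data with noise independent between genes and arrays. That run does not cover a shift shared by many genes of an array. Alternatives were another choice of probe set, scaling, prior, weights, filter, covariate or block, and leaving out arrays.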

Additional observations from a re-analysis of the deposited data

Results flagged for a closer look

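Among 140 sets of 4 Placebo values (the genes named in the text, the list levels and the array measures), 7 had a tumour far from the other 3 by Dixon's gap, where chance gives about 1 in 20. That count was no more than chance gives, and the sets are not independent of each other. Placebo replicate 1 stood high in Pdcd1lg2, at 9.79 against 8.77 to 8.80, and in the mean level of the T cell genes, at 7.77 against 7.11 to 7.18. Placebo replicate 2 stood low in Ccl8, at 9.82 against 11.36 to 11.62, and in Foxp3, at 4.54 against 4.77 to 4.81. Placebo replicate 4 stood high in Folr2, at 7.93 against 5.88 to 6.20, and Placebo replicate 3 in Clec14a, at 4.53 against 4.15 to 4.21, and in Acta2, at 10.92 against 10.18 to 10.30.

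Probe sets with no gene in the probe table were outside the comparison of genes, and 4 of the 8 that passed the threshold over all 45037 probe sets (limma) were of this kind. Probe set 1449521_PM_at read 4.50, 4.24, 4.70 and 4.71 in Placebo and 5.91, 5.90 and 5.81 in AntiPD1, a difference of 1.34 (adjusted p = 0.00258). Probe set 1456288_PM_at read 5.72, 5.37, 5.70 and 5.99 against 7.32, 7.27 and 7.0, a difference of 1.5 (adjusted p = 0.0330). The rest of the 4 were lower in AntiPD1. Probe sets 1443445_PM_at and 1439330_PM_at differed by -0.78 and -0.94 (limma adjusted p = 0.0169 and 0.0330).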

How the results depend on the processing

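The count of called genes depended on the model. For AntiPD1 against Placebo it was 5, and became 70 with only the 2 groups fitted, 1822 with array weights, 8 with the mean of a gene's probe sets, 8 of 45037 over all probe sets, 1 with the title number as a random block, 0 with the Y-linked mean as covariate, and 0 with AntiPD1 replicate 2 and Placebo replicate 3 both left out, an alternative chosen after seeing the data. It stayed between 4 and 6 in the other scaling, prior and filter settings, and ran from 0 to 30 when arrays were left out in turn. The genes called changed as well. Of the 5, 3 passed with array medians subtracted, 3 with the mean of probe sets and 4 with only the 2 groups fitted. All 5 passed with array weights and with dim genes removed. Over all probe sets, the kept probe sets of Esm1 and Clcn3 did not pass (limma adjusted p = 0.0501 and 0.0602). For Combination against Cabozantinib the count was 1, and became 1441 with array weights, 4 with the mean of probe sets, 2 with dim genes removed, with quantile normalization again, with array medians subtracted and with the trend and robust prior, and 0 with the Y-linked mean as covariate, with a range of 0 to 1955 when arrays were left out. The interaction count was 0, with a range of 0 to 1 when arrays were left out, and it has no value with only 2 groups fitted. Causes were not tested beyond the construction of each setting. With the Y-linked mean as covariate the difference turned sign in Serpina6 (0.13), Pdcd1 (-0.086), Pdcd1lg2 (-0.048), Ctla4 (-0.26), Lag3 (-0.59), Tnfrsf9 (-0.40), Cd4 (-0.16), Ifng (-0.37), Cxcl9 (-0.27), Cxcl10 (-0.16), H2-Aa (-0.54) and Foxp3 (-0.12). Foxp3 also turned with array weights (-0.0201) and without Placebo replicate 2, in a range from -0.019 to 0.095 when arrays were left out. Igkv14-111 turned without AntiPD1 replicate 2, in a range from -0.20 to 0.89 when arrays were left out, and with AntiPD1 replicate 2 and Placebo replicate 3 both left out (-0.087). The signs of the 5 called genes held in every setting run.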
